A study of Rattus norvegicus with 6 samples.

Results

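A set of 36 genes with which cells handle unfolded protein and blocked translation was followed in the renal cortex of rats given p-nitroanisole. They comprise 19 genes of the endoplasmic reticulum (ER), which fold or degrade secretory proteins, and 17 genes made up of Atf4, Ddit3 (CHOP) and genes that these transcription factors switch on. Members were taken from a list of gene names, and a probe was assigned to a member when its accession belonged to that gene in a RefSeq table. Of the 36 members, 34 had a probe, out of 15645 genes named on the array. No probe was matched to Edem1 or Manf, and the probe of Stc2 was well above background on 0 of 3 p-nitroanisole and 1 of 3 vehicle arrays, so that 33 members were tested, 17 of the ER genes and 16 of the ATF4 and CHOP genes.

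The p-nitroanisole group was 3 male Sprague-Dawley rats dosed with the compound at 500 mg/kg each day over 4 weeks, and the vehicle group was 3 such rats dosed with corn oil over the same period. All were bought at 5 weeks of age and kept on a basal diet, and the route of dosing is not given in the sources used here. Each rat gave 1 sample of cortex RNA and 1 single-colour Agilent array. Levels are given here as relative intensity, the background-subtracted spot intensity divided by the 75th percentile of its array, and differences as log2 of p-nitroanisole over vehicle with the limma standard error (SE). A probe's relative intensity depends on its own sequence, so levels are compared between rats and not between genes.

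Proteins that enter the secretory pathway are folded in the lumen of the ER by chaperones of the Hsp70 and Hsp90 families, by the lectins that bind their sugars and by disulfide isomerases. Misfolded proteins are passed out to the proteasome by the degradation machinery built around the ubiquitin ligase HRD1. When unfolded protein accumulates, the sensors ATF6 and IRE1 raise the transcription of folding and degradation genes, IRE1 by way of XBP1, while the sensor PERK phosphorylates the initiation factor eIF2 alpha, which slows translation and lets ATF4 be made. ATF4 then switches on amino acid genes and the CHOP gene, and other kinases that sense amino acid shortage, viral RNA or lack of heme reach ATF4 without the ER. The arrays measure transcripts, and the translation of ATF4 and the splicing of XBP1 are not measured here.

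The 10 proximal tubule markers were all well above background on every array. Their summed relative intensity was 2051 to 2136 in p-nitroanisole rats and 1971 to 2061 in vehicle rats. Markers of the loop of Henle and collecting duct summed to 476.2 to 500.9 in p-nitroanisole rats and 418.7 to 530.4 in vehicle rats. These sums show kidney tubule and cannot tell cortex from whole kidney. On each array 66.4% to 69.2% of the 61537 probes exceeded background by the scanner software's test. By the file headers the 3 vehicle arrays and p-nitroanisole arrays 1 and 2 lay on 1 slide and p-nitroanisole array 3 on another. P-nitroanisole arrays 1 and 2 occupied the second row of their slide and the other 4 arrays the first row, so that within a row only p-nitroanisole array 3 can be set against the vehicle arrays. Array 3 correlated with the other 5 arrays at 0.989 to 0.991 across tested rows, against 0.991 to 0.994 among those 5. With 3 arrays a group, their number limits the precision of every value below.

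None of the 33 tested members passed the limma test at an adjusted p of 0.05, where 24 of 32197 rows (0.0745%) did. In single directions it was 0.0497% of rows higher and 0.0248% lower. Of the 17 tested ER genes, 16 were higher in p-nitroanisole rats, with a median log2 difference of 0.20, whereas 52.4% of all rows were higher and 47.6% lower, and their median difference was 0.01. On the brightest tested probe of each gene, 9 of the 17 (52.9%) had every p-nitroanisole array above every vehicle array. That compares with 11.9% of all rows in that direction and 22.2% in either. The same 9 genes had an unadjusted p under 0.05 in limma, against 7.68% of all rows in that direction. Of the 16 ATF4 and CHOP genes, 9 were higher and 7 lower, with a median of 0.03. Of these 16, 4 (25.0%) did not overlap upwards and 0 downwards, against 11.9% and 10.3% of all rows. An unadjusted p under 0.05 was reached by 2 higher and 1 lower gene of this arm, against 7.68% and 5.76% of all rows. With arrays scaled on their medians, 15 of 17 ER genes were higher (median 0.15), and 7 of the ATF4 and CHOP genes were higher and 9 lower (median -0.02). With that scaling an unadjusted p under 0.05 was reached by 5 higher ER genes and by 0 higher and 1 lower ATF4 and CHOP genes. Of all 32197 rows, 4719 reached it in either direction. The difference between the arms was not tested, since the members were chosen with results of these data known.

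**Figure D1:**
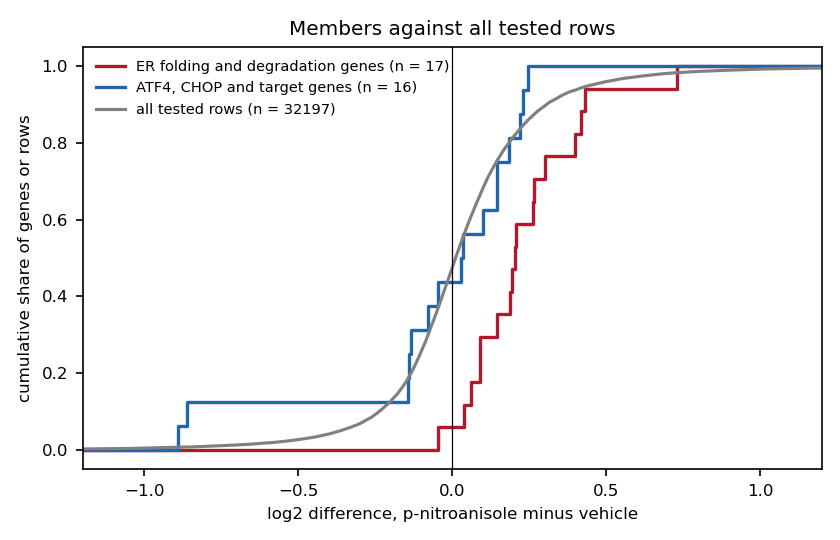
Cumulative share of the 17 ER genes, the 16 ATF4 and CHOP genes and all 32197 tested rows (vertical axis) by log2 difference, p-nitroanisole minus vehicle (horizontal axis). The ER curve lies to the right of the curve for all rows and reaches 0.73 at Sdf2l1, while the ATF4 and CHOP curve runs close to that of all rows except for 2 genes at -0.86 and -0.89.

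Among the chaperones of the ER lumen, all 7 tested genes were higher in p-nitroanisole rats, with a median log2 difference of 0.21. Of the 7, 4 (57.1%) did not overlap, all upwards, against 11.9% of all rows in that direction. Sdf2l1, which encodes a cochaperone of the BiP cycle, had relative intensities of 5.82, 6.61 and 4.77 in p-nitroanisole rats, against 3.12, 3.66 and 3.52 in vehicle rats. Every p-nitroanisole rat was thus above every vehicle rat, and the gene had the largest difference of any member in the upward direction. The difference was 1.66-fold (log2 difference 0.73, SE 0.14, 95% interval 0.39 to 1.07, limma adjusted p = 0.153). Both other probes of Sdf2l1 gave log2 differences of 0.71. Set within the first row, with p-nitroanisole array 3 alone against the vehicle arrays, which lay on another slide, the log2 difference was 0.48.

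Hyou1 encodes an Hsp70-like protein that exchanges nucleotide on BiP. Its relative intensities were 8.18, 8.18 and 8.85 in p-nitroanisole rats, against 6.04, 6.34 and 6.51 in vehicle rats. The groups were well apart and the spread within each was small, which gave Hyou1 the smallest p of all members (log2 difference 0.42, SE 0.07, 95% interval 0.25 to 0.59, limma adjusted p = 0.130). A second Hyou1 probe gave 0.43. Hsp90b1, the ER member of the Hsp90 family (GRP94), stood at 16.2, 14.6 and 13.4 in p-nitroanisole rats and at 8.82, 12.3 and 11.9 in vehicle rats. Its groups did not overlap, but vehicle rat 1 was low, and the log2 difference of 0.43 (SE 0.15, limma adjusted p = 0.323) was 0.28 without that rat. The second Hsp90b1 probe gave 0.28.

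Hspa5 encodes BiP, the Hsp70 of the ER and the best known target of the unfolded protein response. It measured 40.2, 36.6 and 39.9 in p-nitroanisole rats, against 29.5, 36.0 and 37.0 in vehicle rats. The groups overlapped, since p-nitroanisole rat 2 lay below vehicle rat 3, and the log2 difference was 0.19 (SE 0.11, 95% interval -0.07 to 0.46, limma adjusted p = 0.485). Without vehicle rat 1, the lowest of the 6, it was 0.09. Dnajb9, a J protein that partners BiP, had 2.21, 2.27 and 1.97 in p-nitroanisole rats and 1.88, 1.90 and 1.81 in vehicle rats, without overlap (log2 difference 0.21, SE 0.08, limma adjusted p = 0.345). The J protein genes Dnajb11 and Dnajc3 overlapped between the groups, at log2 differences of 0.14 and 0.09.

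The transcription of several of these genes is known to run through the ER stress element, to which ATF6 binds together with NF-Y. Promoters of the members are shown because 16 of the 17 tested ER genes were on the higher side together. They come from RefSeq on the assembly GRCr8, which holds a window of 250 bases before to 50 bases after the gene start for 16 of the 19 ER genes and 16 of the 17 ATF4 and CHOP genes. The letters searched were CCAAT and, after any 9 bases, CCACG for the ER stress element, ATTGG and, after any 1 base, CCACG for the ER stress element II, and TGATGNAA for the C/EBP-ATF response element, where N is any base. Both strands were searched, and no match overlapped another. The ER stress element was present in 7 of the 16 ER genes (Calr, Canx, Creld2, Dnajc3, Hsp90b1, Hspa5 and Xbp1) and the element II in 3 others (Dnajb11, Herpud1 and Hyou1), against 0.0657% and 0.0508% of all 33469 promoters of that length. Neither was present in the 16 ATF4 and CHOP genes. Because several of these ER genes are known for the element, its share among them is not a result of these arrays. A match describes these letters and is neither a binding site nor a cause. The 250 bases before the start of 4 ER genes follow, with matches in capitals.
Hyou1: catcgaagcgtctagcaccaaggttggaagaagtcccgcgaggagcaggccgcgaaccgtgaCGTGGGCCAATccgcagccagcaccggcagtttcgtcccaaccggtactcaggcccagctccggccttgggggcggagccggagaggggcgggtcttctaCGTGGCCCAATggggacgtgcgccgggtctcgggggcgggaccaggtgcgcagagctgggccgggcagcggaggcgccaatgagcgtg
Hsp90b1: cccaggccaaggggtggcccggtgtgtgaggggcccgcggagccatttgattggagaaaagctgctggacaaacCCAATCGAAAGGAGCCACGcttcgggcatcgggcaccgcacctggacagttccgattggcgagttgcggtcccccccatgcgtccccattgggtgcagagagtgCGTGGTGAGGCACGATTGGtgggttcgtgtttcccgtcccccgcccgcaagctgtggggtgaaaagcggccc
Calr: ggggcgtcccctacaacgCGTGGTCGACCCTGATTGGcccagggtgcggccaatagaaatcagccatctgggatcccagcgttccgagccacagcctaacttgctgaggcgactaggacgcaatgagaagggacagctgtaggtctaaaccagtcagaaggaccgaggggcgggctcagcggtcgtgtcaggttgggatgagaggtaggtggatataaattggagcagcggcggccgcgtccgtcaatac
Hspa5: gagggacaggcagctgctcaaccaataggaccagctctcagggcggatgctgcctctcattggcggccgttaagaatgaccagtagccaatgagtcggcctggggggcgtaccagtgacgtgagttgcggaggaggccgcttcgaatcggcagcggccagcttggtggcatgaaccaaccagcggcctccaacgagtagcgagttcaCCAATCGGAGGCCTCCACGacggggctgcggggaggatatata
These lie at chr8:53602632-53602881 (+ strand) for Hyou1, the first of its 2 entries in the table, chr7:23012294-23012543 (- strand) for Hsp90b1, chr19:40213117-40213366 (+ strand) for Calr and chr3:38452766-38453015 (+ strand) for Hspa5, in GRCr8. Each is printed in the direction of its gene. The capitals of Hyou1 are 2 copies of the element II read on the opposite strand. Those of Hsp90b1 are 1 element on each strand, that of Calr is read on the opposite strand, and that of Hspa5 is in the direction of the gene, from 43 to 25 bases before the start.

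**Figure D2:**
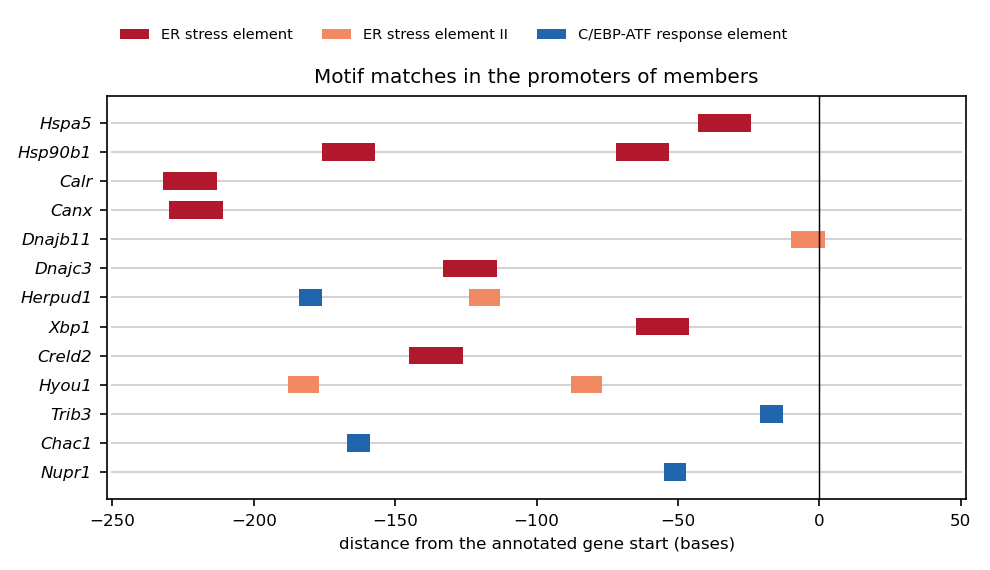
Position of motif matches in bases from the annotated gene start (0 marks the start) for the 13 members with at least 1 match. Red and orange bars are ER stress elements of both kinds, all in ER genes, and blue bars are C/EBP-ATF response elements, in Herpud1, Trib3, Chac1 and Nupr1.

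Expression differences were then read by match. The 10 tested ER genes with either ER stress element had log2 differences of -0.05 to 0.43, with a median of 0.17. The 5 tested genes that had a promoter in the table and no match were at 0.09 to 0.73, with a median of 0.26, Sdf2l1 among them. In each of the 2 sets 4 genes did not overlap between the groups, all upwards, against 11.9% of all rows in that direction. Genes are not independent replicates, and no test was made of this split.

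Among the lectin chaperones and disulfide isomerases, 5 of 6 tested genes were higher, with a median log2 difference of 0.23. Of the 6, 4 (66.7%) did not overlap, all upwards, against 11.9% of all rows in that direction. Calr encodes calreticulin, which binds calcium and newly made glycoproteins. Its relative intensities were 11.4, 10.4 and 10.2 in p-nitroanisole rats, against 7.86, 8.49 and 7.84 in vehicle rats, a clear gap on every array. The difference was 1.32-fold (log2 difference 0.40, SE 0.08, 95% interval 0.21 to 0.59, limma adjusted p = 0.158). Canx, for the membrane lectin calnexin, had 5.35, 5.36 and 5.39 in p-nitroanisole rats and 4.71, 4.78 and 4.50 in vehicle rats. The p-nitroanisole rats were almost identical, and the log2 difference was 0.20 (SE 0.06, limma adjusted p = 0.263).

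Pdia4, a disulfide isomerase, stood at 0.713, 0.696 and 0.749 in p-nitroanisole rats, against 0.529, 0.580 and 0.648 in vehicle rats (log2 difference 0.30, SE 0.09, limma adjusted p = 0.278). Pdia6, another isomerase, had 18.6, 19.4 and 16.6 in p-nitroanisole rats and 14.6, 15.3 and 15.6 in vehicle rats (log2 difference 0.26, SE 0.08, limma adjusted p = 0.279). Neither gene overlapped between the groups. Pdia3, the isomerase that works with both lectins, overlapped, because p-nitroanisole rat 3 at 8.12 lay within the vehicle range of 7.99 to 8.94, while rats 1 and 2 were above it (log2 difference 0.19, SE 0.12). Creld2, an ER stress gene with isomerase activity, was the 1 lower ER gene, with a log2 difference of -0.05 (SE 0.18) and vehicle rats from 1.30 to 2.04.

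Of the degradation genes and their regulator, 4 were tested and Sel1l alone did not overlap, upwards (25.0%, against 11.9% of all rows). Sel1l encodes the adaptor that delivers substrates to HRD1. It had 0.830, 0.796 and 0.736 in p-nitroanisole rats, against 0.668, 0.639 and 0.661 in vehicle rats (log2 difference 0.26, SE 0.07, limma adjusted p = 0.235). Its partner Syvn1, the HRD1 ligase itself, was at 0.09 (SE 0.07) and Herpud1, a scaffold of the same complex, at 0.04 (SE 0.14). Xbp1, the factor of the IRE1 branch, measured 4.48, 5.23 and 4.46 in p-nitroanisole rats, against 4.65, 4.07 and 4.84 in vehicle rats. Rats of both groups were interleaved, and the log2 difference was 0.06 (95% interval -0.19 to 0.32, limma adjusted p = 0.818).

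**Figure D3:**
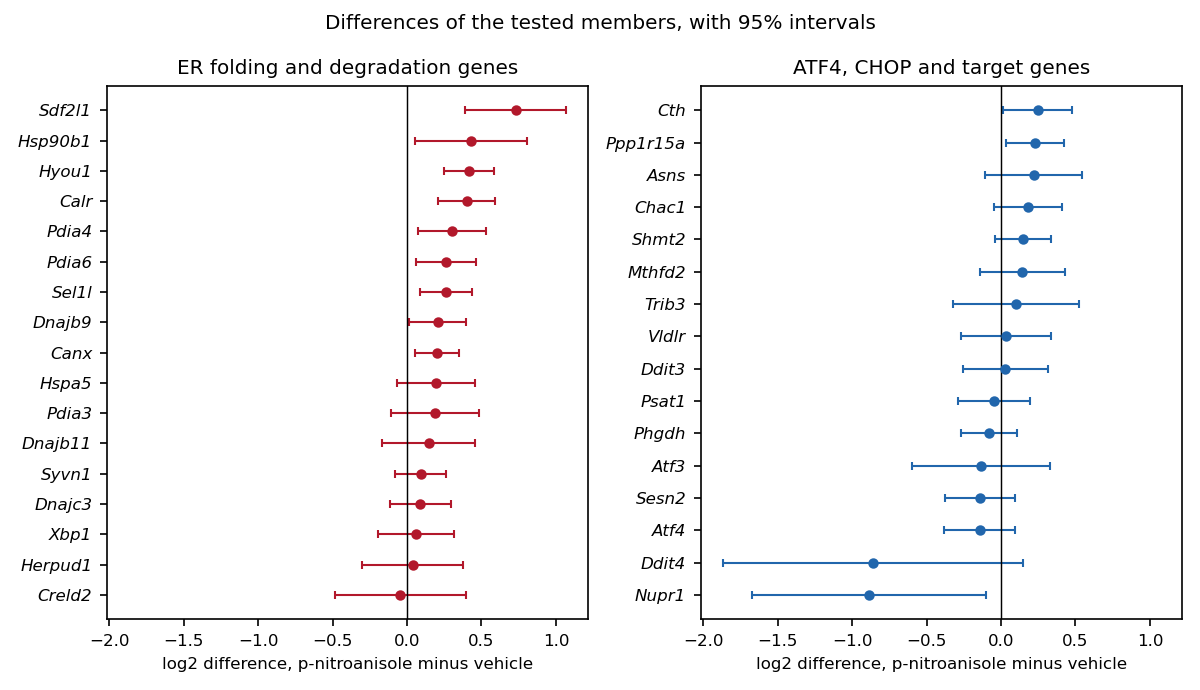
Log2 difference, p-nitroanisole minus vehicle, of each tested member (points) with its 95% limma interval (bars, 3 rats a group, not adjusted for the number of genes). The interval lies above 0 for 9 of 17 ER genes (left), and above 0 for 2 and below 0 for 1 of 16 ATF4 and CHOP genes (right). Such an interval corresponds to an unadjusted p under 0.05 in limma, which 7.68% of all rows reached upwards and 5.76% downwards.

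The ATF4 and CHOP genes were read in the order of factors, enzymes and other targets. Atf4 itself had 25.1, 23.7 and 20.3 in p-nitroanisole rats, against 25.1, 26.3 and 24.7 in vehicle rats. P-nitroanisole rats 2 and 3 were below all vehicle rats and rat 1 was among them, with a log2 difference of -0.14 (SE 0.10, 95% interval -0.38 to 0.09, limma adjusted p = 0.553). Ddit3, the gene of the death-promoting factor CHOP, had 7.88, 6.44 and 6.25 in p-nitroanisole rats and 7.25, 6.25 and 6.57 in vehicle rats. The p-nitroanisole rats spanned the whole vehicle range, at a log2 difference of 0.03 (95% interval -0.25 to 0.31, limma adjusted p = 0.926), and a second probe gave -0.04. Atf3, a further stress factor, was at -0.13 (SE 0.19), with p-nitroanisole rat 3 lowest at 0.368 against 0.496 to 0.587 in vehicle rats, and Trib3, a pseudokinase that CHOP induces, was at 0.10 (SE 0.17), with rat 1 highest.

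Ppp1r15a encodes GADD34, the subunit that directs a phosphatase to eIF2 alpha and so restores translation. Its relative intensities were 1.84, 1.84 and 1.91 in p-nitroanisole rats, against 1.54, 1.49 and 1.74 in vehicle rats. This was 1 of the 4 genes of the arm without overlap (log2 difference 0.23, SE 0.08, 95% interval 0.03 to 0.43, limma adjusted p = 0.322), and its second probe gave 0.25. Nupr1, a small nuclear stress protein, ran the other way with 0.429, 0.940 and 0.455 in p-nitroanisole rats, against 0.935, 1.24 and 1.01 in vehicle rats. P-nitroanisole rats 1 and 3 were below 0.5 and rat 2 was level with vehicle rat 1. The log2 difference was -0.89 (SE 0.32, 95% interval -1.68 to -0.10, limma adjusted p = 0.326), and lay between -1.25 and -0.69 when any 1 rat was left out.

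Of the 6 amino acid and one-carbon enzymes, 3 did not overlap between the groups, all upwards, against 11.9% of all rows in that direction. The 3 differences were small, and Cth alone of these genes had an unadjusted p under 0.05 in limma. Cth, which makes cysteine from cystathionine, had 4.32, 3.71 and 4.13 in p-nitroanisole rats, against 3.63, 3.12 and 3.51 in vehicle rats (log2 difference 0.25, SE 0.09, limma adjusted p = 0.348). Shmt2, which feeds one-carbon units into mitochondria, had 13.2, 15.2 and 13.9 in p-nitroanisole rats, against 12.3, 13.1 and 12.8 in vehicle rats (log2 difference 0.15, SE 0.08, limma adjusted p = 0.465). Asns, the asparagine synthetase that is among the most responsive ATF4 targets, had 0.770, 0.584 and 0.559 in p-nitroanisole rats and 0.528, 0.542 and 0.558 in vehicle rats. Rat 1 stood out while rats 2 and 3 lay just above the vehicle range, so that the log2 difference of 0.22 (SE 0.13, 95% interval -0.11 to 0.54, limma adjusted p = 0.521) was 0.07 without p-nitroanisole rat 1.

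The serine synthesis genes Phgdh and Psat1 were at -0.08 (SE 0.08) and -0.05 (SE 0.10), and the second Psat1 probe at -0.24. Mthfd2, a mitochondrial folate enzyme, was at 0.14 (SE 0.12), but its 5 tested probes disagreed, from -0.28 to 0.24. In the ER arm all 9 genes with several tested probes gave 1 direction on every one, as did 5 of 7 such genes of the ATF4 and CHOP arm. Direction apart, the second probes of Hsp90b1, Canx, Dnajb9 and Sel1l overlapped between the groups, with p-nitroanisole rat 3 below a vehicle rat. Their log2 differences were 0.28, 0.15, 0.18 and 0.16, at unadjusted limma p of 0.094, 0.125, 0.103 and 0.126. Every probe of Sdf2l1 and Hyou1 was without overlap.

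Of the other targets, Chac1, which degrades glutathione, had 0.550, 0.492 and 0.593 in p-nitroanisole rats, against 0.454, 0.476 and 0.506 in vehicle rats. The groups overlapped slightly (log2 difference 0.18, SE 0.09, limma adjusted p = 0.452). Ddit4, an inhibitor of the growth kinase mTORC1 that glucocorticoids and low oxygen also induce, had 2.88, 2.68 and 2.71 in p-nitroanisole rats, against 5.23, 8.86 and 2.71 in vehicle rats. Only vehicle rats 1 and 2 were high, and vehicle rat 3 was level with the p-nitroanisole rats. The log2 difference was -0.86 with a wide error (SE 0.41, limma adjusted p = 0.430), -0.45 without vehicle rat 2 and -1.30 without vehicle rat 3. Sesn2, a stress-induced regulator of mTORC1, was at -0.14 (SE 0.10) and Vldlr, a lipoprotein receptor, at 0.04 (SE 0.12).

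The C/EBP-ATF response element, through which ATF4 acts, was matched in the promoters of Chac1, Nupr1 and Trib3 among the 16 ATF4 and CHOP genes and in Herpud1 among the ER genes, against 3.98% of all promoters. The 250 bases before the start of the 2 of these with the largest differences in each direction show the match in capitals, read on the opposite strand.
Chac1: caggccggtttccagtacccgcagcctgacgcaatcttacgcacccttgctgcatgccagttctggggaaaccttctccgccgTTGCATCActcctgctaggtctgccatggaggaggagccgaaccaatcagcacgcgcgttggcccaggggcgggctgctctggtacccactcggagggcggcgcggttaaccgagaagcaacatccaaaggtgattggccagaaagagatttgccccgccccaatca
Nupr1: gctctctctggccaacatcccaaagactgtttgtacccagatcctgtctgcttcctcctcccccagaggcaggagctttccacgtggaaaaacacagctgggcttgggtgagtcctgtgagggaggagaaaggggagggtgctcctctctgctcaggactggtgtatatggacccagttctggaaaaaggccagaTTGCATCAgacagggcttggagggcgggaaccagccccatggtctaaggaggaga
They lie at chr3:126795881-126796130 (+ strand) and chr1:190645902-190646151 (- strand) in GRCr8. Of the 4 genes with the element, Nupr1 was at -0.89, Chac1 at 0.18, Trib3 at 0.10 and Herpud1 at 0.04, none of them past the adjusted threshold.

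How large a difference these arrays leave room for in each tested member can be read from its interval. The upper end of the 95% interval was below a 1.5-fold rise, a size chosen after the values were seen, for 16 of 16 ATF4 and CHOP genes and for 13 of 17 ER genes. In the other direction the lower end was above a 1.5-fold decrease for 13 of 16 ATF4 and CHOP genes, all but Ddit4 (-1.87), Nupr1 (-1.68) and Atf3 (-0.60), and for 17 of 17 ER genes. The half-width of the interval had a median of 0.23 on the log2 scale in the ER arm and 0.26 in the ATF4 and CHOP arm, and reached 1.01 at Ddit4. A 1.5-fold rise corresponds to 0.58 on that scale. The intervals are not adjusted for the number of genes and leave slide and row out of account. They cover the members only, and Gdf15, among the other ATF4 targets read below, had an interval of 0.79 to 1.80.

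**Figure D4:**
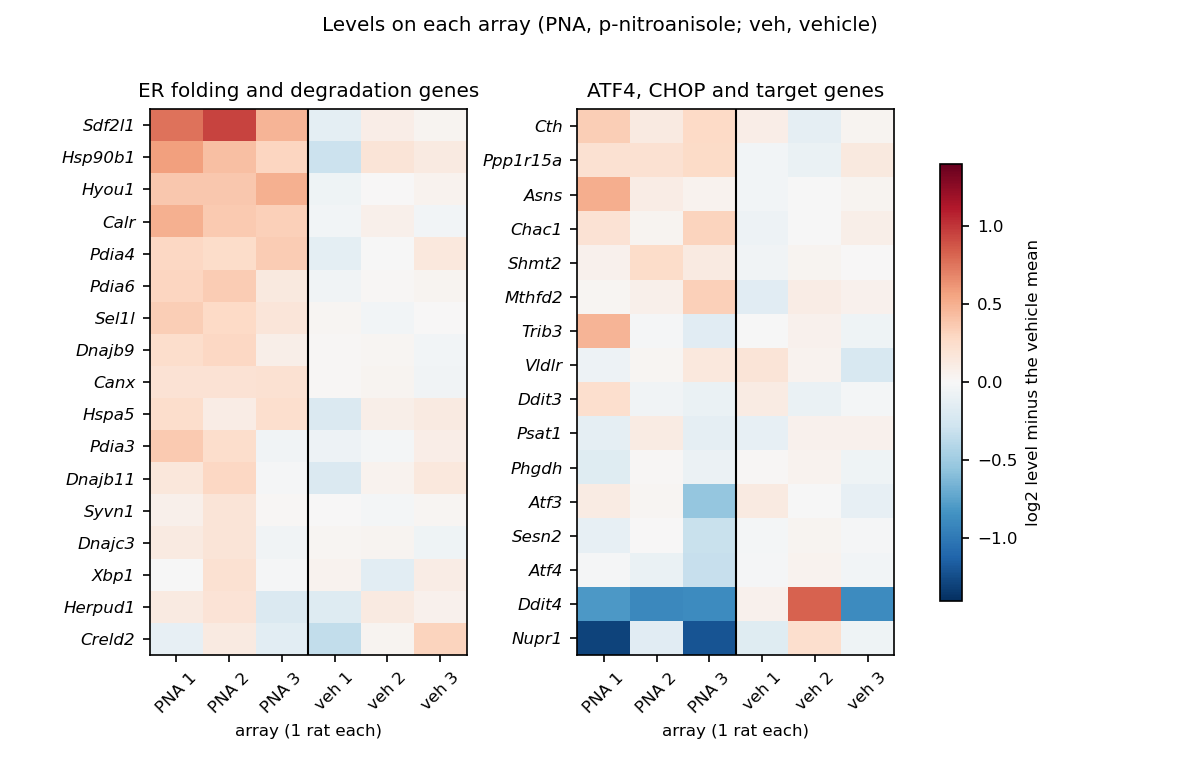
Log2 level of each tested member (rows) on each array (columns, 1 rat each, PNA for p-nitroanisole and veh for vehicle) minus the mean of the vehicle arrays, in colour. Rows are ordered by log2 difference. The upper rows of the ER genes are above the vehicle mean on all 3 p-nitroanisole arrays. The same holds for the upper ATF4 and CHOP rows, from Cth to Mthfd2. Ddit4 and Nupr1 are lowest, with Ddit4 equally low on vehicle array 3.

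The ER genes differed in extent between the p-nitroanisole rats. The median ER gene lay 0.25, 0.25 and 0.13 above the vehicle mean (log2) in p-nitroanisole rats 1, 2 and 3, against -0.06, 0.03 and 0.05 in vehicle rats 1, 2 and 3. Of the 17 ER genes, 14, 15 and 10 were above every vehicle array in p-nitroanisole rats 1, 2 and 3, against 29.2%, 31.2% and 36.0% of all rows. Counted above the vehicle mean, they were 15, 17 and 11 in p-nitroanisole rats 1, 2 and 3, against 6, 12 and 13 in vehicle rats 1, 2 and 3, so that by this count p-nitroanisole rat 3 lay below vehicle rats 2 and 3. The median ATF4 or CHOP gene lay at 0.04, 0.03 and -0.09 in the p-nitroanisole rats, against -0.02, 0.05 and -0.02 in the vehicle rats. In p-nitroanisole rat 3, 6 of these 16 genes were above every vehicle array and 9 below, against 36.0% and 32.1% of all rows. Within the slide that holds both groups, 17 of 17 ER genes were higher (median 0.27), as were 9 of 16 ATF4 and CHOP genes (median 0.06). Within the first row, where p-nitroanisole rat 3 is the only treated animal, 11 of 17 ER genes (median 0.13) and 7 of 16 ATF4 and CHOP genes (median -0.09) were higher. On the slide that holds both groups, treatment and row coincide and cannot be told apart. Within the first row, treatment and slide coincide in the same way. What part the slide and the position on it have in the difference between rats cannot be told apart from the rats themselves, and was not tested.

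Other genes of the pathway were read from 7 further lists, none of whose genes passed the limma test. At an unadjusted p under 0.05 they held 5 higher and 0 lower of 104 genes tested (4.81% and 0%), against 7.68% and 5.76% of all rows. Of 20 other folding enzymes and cochaperones tested, 1 did not overlap upwards (5.0%) and 0 downwards, against 11.9% and 10.3% of all rows. Of these genes 12 were higher and 8 lower, with a median log2 difference of 0.03. Their largest values relative to error were Fkbp14 at -0.32 (SE 0.14) and Fkbp11 at 0.24 (SE 0.10), both prolyl isomerases. P4hb, the founding disulfide isomerase, had 23.4, 23.7 and 21.7 in p-nitroanisole rats, against 23.4, 22.0 and 21.4 in vehicle rats, and so overlapped. Of 19 genes for entry into the ER, 12 were higher and 7 lower (median log2 difference 0.07). Of these, 6 did not overlap upwards (31.6%) and 1 downwards, against 11.9% and 10.3% of all rows. An unadjusted p under 0.05 in limma was reached by 0 of them in either direction. Rpn2, a subunit of the enzyme that attaches sugars, was at 0.24 (SE 0.10).

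Of 15 other degradation genes tested, 11 were higher and 4 lower, with a median of 0.06. Without overlap were 4 upwards (26.7%) and 1 downwards, against 11.9% and 10.3% of all rows. Nploc4 at 0.19 (SE 0.06) and Vcp at 0.17 (SE 0.07) were among the former, and Selenos at -0.13 (SE 0.06) was the latter. Derl3, a channel component that XBP1 induces, stood apart with 1.08, 1.25 and 0.527 in p-nitroanisole rats, against 0.286, 0.399 and 0.418 in vehicle rats. The lowest p-nitroanisole rat was above the highest vehicle rat, and the difference was 2.46-fold (log2 difference 1.30, SE 0.35, 95% interval 0.44 to 2.16, limma adjusted p = 0.233). Derl3 is also abundant in plasma cells, and it was the 1 higher gene of 4 tested plasma and B cell markers. Pou2af1 was at -0.32 without overlap and Cd79b at -0.02, and the plasma cell genes Mzb1 and Tnfrsf17 were not well above background on any array. The summed relative intensity of the 6 markers with a probe, Derl3 included, was 0.988 to 1.80 in p-nitroanisole rats and 0.890 to 0.998 in vehicle rats.

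Of 11 tested sensors and eIF2 alpha kinases, 4 were higher and 7 lower, with a median of -0.06. Of these, 2 did not overlap downwards and 0 upwards, against 10.3% and 11.9% of all rows. Atf6 measured 3.22, 3.61 and 2.64 in p-nitroanisole rats, against 3.78, 3.76 and 3.82 in vehicle rats (log2 difference -0.27, SE 0.12, limma adjusted p = 0.407). Ern1, the IRE1 gene, had 0.0389, 0.0384 and 0.0389 in p-nitroanisole rats and 0.0522, 0.0438 and 0.0408 in vehicle rats (log2 difference -0.23, SE 0.10, limma adjusted p = 0.410). The PERK gene Eif2ak3 was at 0.02 (SE 0.07) and Eif2ak1, the kinase that responds to lack of heme, at -0.08 (SE 0.07).

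Of 14 other ATF4 targets tested, 9 were higher and 5 lower, with a median of 0.05, and Slc7a11, Slc7a5, Pycr1 and Fgf21 were not tested, because no probe was well above background throughout a group. Of the 14, 2 did not overlap upwards (14.3%) and 0 downwards, against 11.9% and 10.3% of all rows. Gdf15, a stress hormone that p53 also induces, had the largest difference, with 1.97, 1.58 and 1.72 in p-nitroanisole rats, against 0.944, 0.557 and 0.695 in vehicle rats. All p-nitroanisole rats were above all vehicle rats, 2.45-fold on average (log2 difference 1.29, SE 0.20, 95% interval 0.79 to 1.80, limma adjusted p = 0.117). Aldh18a1 was next relative to error at 0.19 (SE 0.08) and also did not overlap. Eif4ebp1, an inhibitor of translation that ATF4 induces, was at -0.34 (SE 0.18). The 12 aminoacyl-tRNA synthetases, whose cytosolic forms ATF4 raises together, had a median of 0.03, with 8 higher and Cars1 furthest from 0 relative to error at 0.18 (SE 0.07). Of 14 tested heat shock genes of the cytosol and mitochondria 9 were higher and 5 lower, with a median of 0.05. Of the 14, 3 did not overlap upwards (21.4%) and 0 downwards, against 11.9% and 10.3% of all rows. Furthest from 0 relative to error were Hspd1 at 0.15 (SE 0.06), Hspa9 at 0.16 (SE 0.07) and Hspa4 at 0.17 (SE 0.10). Hspa1a, the inducible Hsp70, was at -0.09 (SE 0.22).

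Markers of other cells also differed between the groups. All 7 tested red cell markers were higher, by 0.0029 (Slc4a1) to 2.09 (Rhd) on the log2 scale, with a summed relative intensity of 295.9 to 336.8 in p-nitroanisole rats and 159.0 to 183.3 in vehicle rats, and Alas2 among them passed the test (limma adjusted p = 0.0404). Neutrophil markers summed to 1.30 to 1.42 in p-nitroanisole rats and 0.452 to 0.607 in vehicle rats, with 3 of 3 tested higher, S100a8 past the test (limma adjusted p = 0.0453), and Elane, Ltf, Cxcr2 and Mmp8 not well above background on any array. Macrophage markers summed to 12.3 to 17.4 in p-nitroanisole rats and 16.3 to 20.7 in vehicle rats, with 4 of 6 tested lower. Fibroblast markers summed to 27.0 to 30.3 in p-nitroanisole rats and 23.3 to 27.7 in vehicle rats. Their part in the ER and ATF4 values was not tested. In whole cortex, fewer cells of a type and less RNA per cell cannot be told apart.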

How the data were processed

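Gene expression was measured in cortex RNA of 6 rats on 1-colour arrays. The deposited intensity of each spot was extracted with Agilent's Feature Extraction software, version 10.7.1.1 per the file headers (10.7 in the submitters' processing notes), background-subtracted and spatially detrended and not scaled between arrays. The authors' deposited value table holds linear signal equal to these intensities divided by 1 constant per array, with column medians of 0.105 to 0.111, and was used as an alternative. Here the processed intensity, floored at 1, was divided by the 75th percentile over non-control probes and taken to log2. Controls and the 0 to 4 outlier-flagged spots of each array were excluded.

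Testing required a probe to be well above background on each of the 3 arrays in either group. The brightest tested probe stood for a gene. Symbols came by accession from RefSeq (GRCr8), which named 28206 of 61537 probes (45.8%). The array design used another build, so no probe coordinates are given. limma 3.58.1 (lmFit and eBayes, R 4.3.3) compared the groups, two-sided, with Benjamini-Hochberg adjustment over 32197 rows. The procedure was tested on simulated data. Members and lists were chosen with earlier results of these data known. Values on every array are given for members called, for the 8 members of each arm with the largest moderated t, and for Hspa5, Xbp1, Atf4 and Ddit3, and up to 4 genes of each other list are named by the same measure. Genes named beyond this rule (P4hb, Eif2ak1, Eif2ak3, Hspa1a and Slc4a1), and the array values of Dnajb9, were chosen after their values were seen. Samples with the same replicate number deviated from their group means with correlations of -0.010 to 0.040, against -0.068 to 0.065 for different numbers. These values show no pairing by number, but with 3 arrays a group they cannot exclude one. The main test was unpaired. The labels call the samples biological replicates. The value of 1 marker gene is not reported here.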

Additional observations from a re-analysis of the deposited data

How the results depend on the processing

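The count of rows called was 24 and depended on the setting. It was 82 with normexp background correction, 2 with no filter on dim probes, 316 with a trended robust variance, 9 with the slide as a block, 999 with the row on the slide as a block, 1 with the replicate number as a block, and 0 to 9 when 1 array was left out. The row block rests on p-nitroanisole array 3 alone, which lay on another slide than the vehicle arrays and is assumed to vary like the others. The slide block is the same fit as leaving out that array.

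No member was called in 16 of 17 alternatives. With the trended robust variance 2 ER genes were called, Hyou1 (adjusted p = 0.0378) and Calr (adjusted p = 0.0490), and 0 ATF4 or CHOP genes. The ER median was 0.27 with the slide block, 0.13 with the row block and 0.19 to 0.27 without 1 array. The ATF4 and CHOP median was -0.092 with the row block and -0.02 to 0.08 without 1 array. ER genes at an unadjusted p under 0.05 numbered 9, where 4327 of 32197 rows reached it in either direction. With median scaling they numbered 5, where 4719 of 32197 rows reached it. The 3 such ATF4 and CHOP genes were 0 without p-nitroanisole array 1, p-nitroanisole array 3 or vehicle array 2. With the replicate block the ER median stayed at 0.20 and 0 members were called. The replicate block changed no member's call.

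Of 33 members, 23 kept their sign in every alternative, 11 ER and 12 ATF4 or CHOP genes. The other 10, with small differences and none called, changed sign in some. With the row block Pdia3 was at -0.044, Dnajb11 at -0.0145, Dnajc3 at -0.0445, Herpud1 at -0.20, Xbp1 at -0.018, Ddit3 at -0.0965 and Trib3 at -0.16. With median scaling Herpud1 was at -0.018, Ddit3 at -0.0255 and Vldlr at -0.0202. With the slide block Creld2 was at 0.0051, Atf3 at 0.073 and Vldlr at -0.0205. Without 1 array the ranges were -0.054 to 0.16 for Herpud1, -0.0139 to 0.11 for Xbp1, -0.22 to 0.11 for Creld2, -0.0745 to 0.093 for Ddit3, -0.091 to 0.23 for Trib3, -0.26 to 0.073 for Atf3 and -0.0775 to 0.12 for Vldlr. The causes were not tested. The planned normexp correction on mean signals could not be run, because the files hold median signals, and the correction on medians was chosen after seeing the data. Stc2 and genes below background have no usable value.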
